A study of Rattus norvegicus with 12 samples.

Results

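The transcripts described here are those of 6 genes of the elastic fibre and its microfibrils, *Eln*, *Fbln2*, *Fbln5*, *Efemp1*, *Mfap5* and *Ltbp1*, out of 17941 genes in the count table. They were chosen by symbol, and their identifiers came from lists the study made on the same libraries, partly for genes that differed, so how many of them differed is not independent evidence. RNA was sequenced from 12 cultures of astrocytes (ASTRs) of young adult female Wistar rats, untreated, passaged at least once and kept 20 days in culture. The 6 gmASTR cultures came from the cerebral cortex after removal of the meninges. The 6 wmASTR cultures came from the remaining brain without the amygdala, which is mainly white matter including the corpus callosum but also holds hippocampus, thalamus and basal ganglia, so wmASTRs include some astrocytes of grey matter. By the study's methods, both kinds of culture were prepared together from each animal, but the labels do not say which libraries share an animal. The comparison asks whether astrocytes of both kinds of region differ in the matrix genes they express.

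Elastic fibres give stretchable tissues such as arteries, lung and skin their recoil. A core of crosslinked elastin is laid down on a scaffold of microfibrils, which are built on fibrillins and decorated with microfibril-associated proteins, while fibulins bind elastin and bring it together with the crosslinking enzymes. Latent TGF-β binding proteins tie the inactive growth factor TGF-β to the same microfibrils. In the healthy brain such fibres are found mainly in the walls of vessels and in the meninges.

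Per library, 4920488 to 6356487 counts in gmASTRs and 5363330 to 7207118 in wmASTRs fell on genes, so that 3 counts, taken as the floor, were worth 0.416 to 0.610 CPM, the count of a gene scaled to the total of its library. The library of gmASTR replicate 5 stood apart from the other gmASTR libraries in *Mfap5* and in the leptomeningeal markers *Cldn11* and *Cdh1*, and without it the number of genes that differed between the regions at a false discovery rate (FDR) below 0.05 was 1626 instead of 1197. Of 10 astrocyte markers, 5 could be matched to an identifier, with summed levels of 3680 to 5500 CPM (gmASTRs) against 2260 to 5810 CPM (wmASTRs), most of it *Gja1*, a gap junction gene. *Gfap*, the classical astrocyte marker, had 0 counts in all 6 gmASTR libraries, which by the floor allows at most 0.610 CPM in any of them, and 1.39 to 10.6 CPM in wmASTRs. By western blot the study did detect GFAP protein in both kinds of culture, with less of it in gmASTRs. *Aqp4* (0.200 ± 0.338 and 3.69 ± 1.30 CPM, edgeR FDR = 0.0159) and *Slc1a3* (8.21 ± 4.03 and 21.3 ± 8.46 CPM, edgeR FDR = 0.0128, and 0.0512 without wmASTR replicate 1) were also lower in gmASTRs, while *Aldoc* (20.8 ± 7.26 and 12.7 ± 4.77 CPM, edgeR FDR = 0.178) and *Gja1* (edgeR FDR = 0.831) did not pass. *Aqp4* had 0 counts in 4 of the 6 gmASTR libraries, and its log2 fold change (gmASTR over wmASTR) was -4.19, or -5.39 without gmASTR replicate 1.

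All 6 elastic fibre genes differed between gmASTRs and wmASTRs, and they did not move together. Transcripts of *Eln*, *Fbln2*, *Fbln5* and *Ltbp1* were more abundant in wmASTRs, while those of *Mfap5* and *Efemp1* were more abundant in gmASTRs (edgeR's quasi-likelihood test, Benjamini-Hochberg FDR below 0.05 over 15478 genes). Among all genes tested 7.73% passed that threshold, 3.46% with more transcript in gmASTRs and 4.28% with more in wmASTRs. Among the 6941 genes with a mean of at least 10 CPM, as all 6 had, 14.6% did, 6.76% towards gmASTRs and 7.79% towards wmASTRs. *Fbln2*, *Ltbp1* and *Efemp1* reached that mean only through the region in which they were high, so the share over genes of that level is given as a description. The log2 fold change (log2FC, gmASTR over wmASTR, so that negative values stand for more transcript in wmASTRs) ran from -5.67 to 3.86 with a median of -1.49, against a median of -0.03 over all genes tested. In CPM of the library totals, every library of the higher region lay above every library of the lower region in each of the 6 genes, though the *Fbln5* libraries overlapped with the normalization of the edgeR fit. In CPM of the library totals the same held for 7.42% of the genes with a mean of at least 10 CPM (gmASTRs above in 3.59%, wmASTRs above in 3.83%) and for 3.99% of all genes tested. The exact two-sided permutation test of the CPM means gave p = 0.00216 for each gene, the smallest p that 6 against 6 libraries can give, with the libraries treated as unpaired. Differences of more than 4-fold that also passed the test were found in 5 of the 6, the exception being *Fbln5*. Both conditions held for 1.38% of the genes with a mean of at least 10 CPM and 1.71% of all genes tested. Among the 2095 tested genes with a known name, from which the 6 were taken, 29.4% passed the test, 15.3% had no overlap and 8.74% passed with a difference of more than 4-fold.

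**Figure D1:**
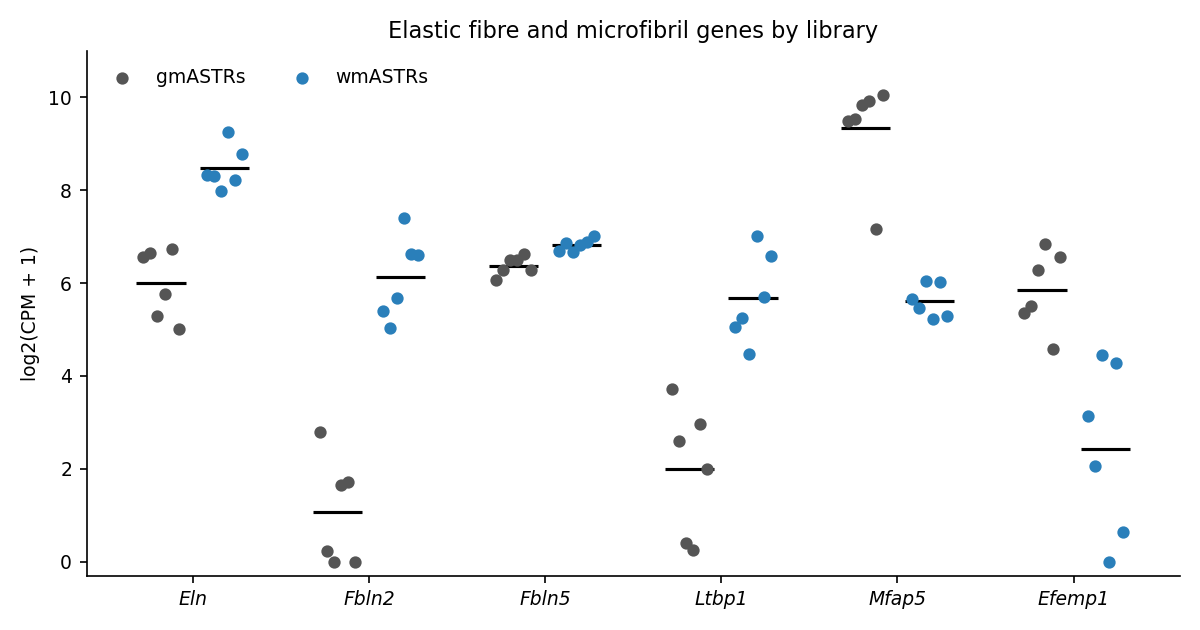
Level of the 6 elastic fibre genes in each library, as log2(CPM + 1) with CPM of the library totals, for 6 gmASTR (dark grey) and 6 wmASTR (blue) cultures, with a bar at the mean of the 6. The wmASTR points lie above the gmASTR points for *Eln*, *Fbln2*, *Fbln5* and *Ltbp1* and below them for *Mfap5* and *Efemp1*, and the gmASTR point of *Mfap5* far below the others, at 143.1 CPM, is replicate 5.

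*Eln* (ENSRNOG00000001469) encodes tropoelastin, the subunit of the elastic core. Its level in gmASTRs had a lowest value of 31.2, a median of 73.3 and a highest value of 105.2 CPM. In wmASTRs the lowest value was 253.5, the median 316.5 and the highest 609.4 CPM. The wmASTR libraries thus started 2.41-fold above the highest gmASTR library, and replicate 4 was the highest of them. The means were 69.9 ± 32.7 CPM (gmASTRs) against 371.6 ± 132 CPM (wmASTRs) (SD, n = 6 each), with a log2FC of -2.47 (SE 0.27, edgeR FDR = 1.36e-06).

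The fibulins differed in size and in direction. *Fbln2* (ENSRNOG00000007338) encodes fibulin-2, a secreted protein of basement membranes and elastic fibres. In gmASTRs it ranged from 0 to 5.89 CPM with a median of 1.15 CPM, and in wmASTRs from 31.6 to 169.0 CPM with a median of 73.0 CPM. It was thus close to undetected in gmASTRs, where replicates 3 and 6 had 0 counts (at most 0.472 and 0.498 CPM) and replicate 2 had 1 count, and replicate 1 with 29 counts held the most. The ratio of the mean levels, 80.8 ± 51.5 CPM in wmASTRs over 1.74 ± 2.29 CPM in gmASTRs, was 46.3, and the log2FC was -5.67 (SE 0.59, edgeR FDR = 8.09e-07). Without gmASTR replicate 1 the gmASTR mean of *Fbln2* was 0.915 CPM and the log2FC -6.60.

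*Fbln5* (ENSRNOG00000050539) encodes fibulin-5, which binds tropoelastin and is needed to assemble elastic fibres. It was the steadiest of the 6 genes, from 65.9 to 97.4 CPM in gmASTRs with a median of 83.0 CPM, and from 100.9 to 128.7 CPM in wmASTRs with a median of 113.9 CPM. The regions did not overlap, but the lowest wmASTR library was only 1.04-fold above the highest gmASTR library. The means were 82.6 ± 11.6 and 112.8 ± 10.2 CPM, a log2FC of -0.52 (SE 0.13, edgeR FDR = 0.0145).

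*Efemp1* (ENSRNOG00000003553) encodes fibulin-3, a relative of fibulin-5 found in basement membranes and around small vessels. Its range was 22.9 to 113.2 CPM in gmASTRs, with a median of 60.5 CPM, and 0 to 20.95 CPM in wmASTRs, with a median of 5.45 CPM. The wmASTR libraries were unequal, with 151 and 128 counts in replicates 3 and 5, 3 counts in replicate 6 and 0 in replicate 4 (at most 0.528 CPM). The highest wmASTR library came within 1.09-fold of the lowest gmASTR library. The mean level was 65.0 ± 34.8 CPM (gmASTRs) against 8.49 ± 9.16 CPM (wmASTRs), with a log2FC of 2.84 (SE 0.56, edgeR FDR = 0.00148), so that this fibulin was the one of the 3 with more transcript in gmASTRs.

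*Mfap5* (ENSRNOG00000015505) encodes a small glycoprotein of the microfibril, MAGP-2, that binds fibrillins. It had the smallest p-value of all 15478 genes tested. In gmASTRs it ranged from 143.1 to 1061 CPM with a median of 822 CPM, and in wmASTRs from 36.4 to 64.7 CPM with a median of 46.2 CPM. Apart from replicate 5, the gmASTR libraries held at least 719.8 CPM, and replicate 5 was still 2.21-fold above the highest wmASTR library. The mean level was 755.6 ± 328 CPM (gmASTRs) against 49.2 ± 12.4 CPM (wmASTRs), a ratio of 15.4 and a log2FC of 3.86 (SE 0.29, edgeR FDR = 7.16e-09). Without gmASTR replicate 5 the gmASTR mean was 878.1 CPM and the log2FC 4.07.

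*Ltbp1* (ENSRNOG00000033090) encodes the latent TGF-β binding protein that anchors latent TGF-β to fibrillin microfibrils. It ranged from 0.193 to 12.2 CPM in gmASTRs with a median of 4.01 CPM, and from 21.2 to 128.1 CPM in wmASTRs with a median of 44.1 CPM. In gmASTRs replicates 3 and 4 had 2 and 1 counts, under the floor, while replicate 1 had 60 counts. The lowest wmASTR library was 1.74-fold above that highest gmASTR library. The mean levels of 4.59 ± 4.54 CPM (gmASTRs) against 60.7 ± 41.7 CPM (wmASTRs) gave a ratio of 13.2 and a log2FC of -3.80 (SE 0.55, edgeR FDR = 4.99e-05).

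Promoter sequences are shown for *Fbln2* and *Ltbp1*, with more transcript in wmASTRs, and for *Mfap5* and *Efemp1*, with more in gmASTRs, so that the DNA before the start sites of genes that differed by more than 4-fold in opposite directions can be compared. Each is the stretch of 250 bases before the gene's start, 5′ to 3′ on the gene's strand, from RefSeq on the GRCr8 assembly, at chr4:125261409-125261658 (plus strand) for *Fbln2*, chr6:26177302-26177551 (minus) for *Ltbp1*, chr4:157399669-157399918 (plus) for *Mfap5* and chr14:106811614-106811863 (plus) for *Efemp1*. Capitals mark matches, on either strand, to the motifs searched, which were the TATA box TATAAA, the CCAAT box CCAAT, the GC box GGGCGG, the AP-1 site TGANTCA, the TEAD site CATTCC and the E-box CACCTG.
Fbln2: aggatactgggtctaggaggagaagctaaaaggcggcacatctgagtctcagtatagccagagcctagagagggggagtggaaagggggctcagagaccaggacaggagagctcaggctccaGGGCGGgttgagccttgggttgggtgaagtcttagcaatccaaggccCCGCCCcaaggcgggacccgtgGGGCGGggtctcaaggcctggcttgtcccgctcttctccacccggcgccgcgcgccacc
Ltbp1: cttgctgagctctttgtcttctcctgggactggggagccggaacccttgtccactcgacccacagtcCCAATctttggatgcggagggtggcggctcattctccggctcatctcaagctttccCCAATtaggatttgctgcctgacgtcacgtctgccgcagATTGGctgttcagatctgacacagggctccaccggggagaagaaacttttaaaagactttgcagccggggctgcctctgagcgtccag
Mfap5: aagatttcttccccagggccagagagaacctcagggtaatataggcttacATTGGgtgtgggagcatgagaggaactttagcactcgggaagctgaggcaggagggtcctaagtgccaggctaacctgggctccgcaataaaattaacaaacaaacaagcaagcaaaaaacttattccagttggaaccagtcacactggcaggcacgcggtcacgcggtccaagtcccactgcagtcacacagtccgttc
Efemp1: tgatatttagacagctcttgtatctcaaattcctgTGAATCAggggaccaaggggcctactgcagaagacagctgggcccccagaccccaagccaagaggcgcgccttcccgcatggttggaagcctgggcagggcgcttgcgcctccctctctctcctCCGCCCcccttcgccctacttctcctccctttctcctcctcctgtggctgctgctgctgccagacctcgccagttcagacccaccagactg
*Fbln2* held 3 GC boxes, starting 128, 81 and 59 bases before the gene's start, and *Efemp1* held 1 GC box, starting at 91 bases. *Ltbp1* held 3 CCAAT boxes, at 183, 127 and 88 bases, and *Mfap5* held 1 on the reverse strand, at 200 bases. *Efemp1* also held the AP-1 letters at 215 bases. No match overlapped another. Of the 33469 promoters in the RefSeq table, 30.5% held a GC box, 34.0% a CCAAT box, 6.34% the AP-1 letters, 12.9% the TATA letters, 12.1% the TEAD letters and 15.9% the E-box letters in a stretch of this length. The promoter of *Fbln5*, at chr6:126742707-126742956 on the minus strand, held 1 GC box, starting at 196 bases. The share of G and C bases was 64.0% in *Fbln2*, 63.2% in *Fbln5*, 61.2% in *Efemp1*, 56.8% in *Ltbp1* and 51.6% in *Mfap5*. These matches describe the letters in the window and not sites in use.

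As a 3′ library gives about 1 read per transcript whatever its length, the levels of the 6 genes can also be set beside each other within a library. *Mfap5* held 72.6 ± 17.2% of their summed counts in gmASTRs and 7.93 ± 3.38% in wmASTRs, while *Eln* held 9.72 ± 9.48% in gmASTRs and 54.0 ± 5.05% in wmASTRs (SD, n = 6 each). The gmASTR value of *Eln* rests in part on replicate 5, with 27.8%, and was 6.09% without it. The transcript ratio of *Eln* to *Mfap5* accordingly lay between 0.0294 and 0.735 in gmASTRs and between 3.92 and 16.7 in wmASTRs. *Fbln2* held 0 to 0.629% of the counts in gmASTRs and 5.79 to 16.0% in wmASTRs, and *Ltbp1* 0.0158 to 1.81% and 4.15 to 12.1%. These shares are given as a description, with no test. *Fbln5* held 10.4 ± 7.59% and 17.4 ± 3.75%, and the regions overlapped, with 25.8% in gmASTR replicate 5, the library with the lowest *Mfap5*. The summed level of the 6 genes was 979 ± 324 CPM (gmASTRs) against 684 ± 209 CPM (wmASTRs), with overlapping ranges.

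**Figure D2:**
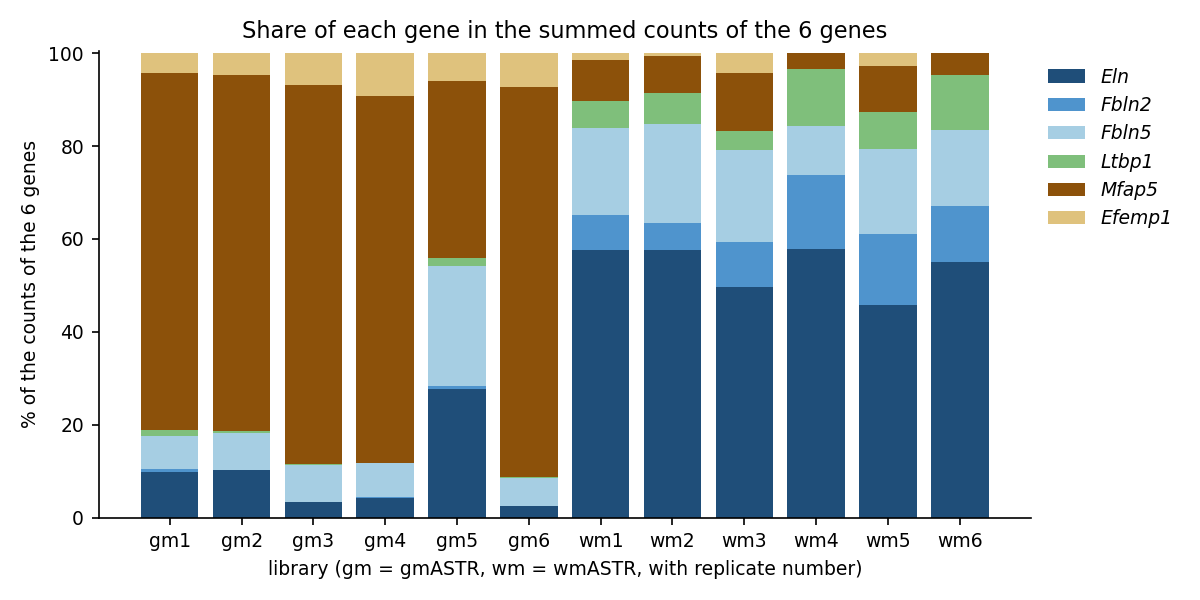
Share of each of the 6 genes in their summed counts (%), as a stacked bar for each of the 12 libraries. *Mfap5* (brown) fills 37.9% to 83.9% of the gmASTR bars, with the lowest share in replicate 5, and *Eln* (dark blue) 45.9% to 57.8% of the wmASTR bars.

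Within each region the libraries were ordered in a similar way by several of the genes. In wmASTRs, replicate 4 was the highest in *Eln*, *Fbln2* and *Ltbp1* and the lowest in *Mfap5* and *Efemp1*, and replicate 3 was the lowest in *Eln*, *Ltbp1* and *Fbln5* and the highest in *Mfap5* and *Efemp1*. In gmASTRs, replicate 5 was the highest in *Eln* and *Fbln5* and the lowest in *Mfap5* and *Efemp1*. Thus *Mfap5* and *Efemp1* stood lowest in the library of each region in which *Eln* stood highest.

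On log2(CPM + 1) with CPM scaled by the trimmed mean of M values (TMM), *Efemp1* and *Mfap5* correlated at r = 0.83 in gmASTRs and 0.97 in wmASTRs, and *Eln* and *Ltbp1* at 0.71 and 0.94. Pairs across those groups ran the other way, with r = -0.86 and -0.93 for *Eln* and *Efemp1* and -0.65 and -0.85 for *Eln* and *Mfap5*. Each value rests on 6 cultures whose libraries are shared by both genes, and is given as a description. The deviations of *Fbln5* from the mean of its region stayed between -0.29 and 0.33 on the log2 scale, whereas those of *Efemp1* in wmASTRs reached 2.01 in replicate 3 and -2.44 in replicate 4.

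**Figure D3:**
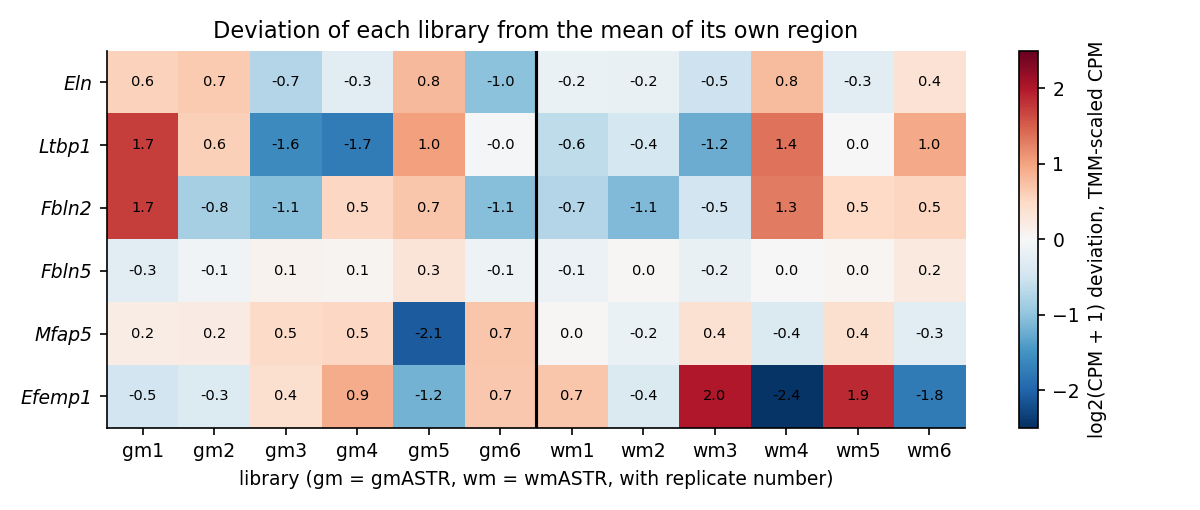
Deviation of each library from the mean of its own region, in log2(CPM + 1) on TMM-scaled CPM, for the 6 genes (lines) and 12 libraries (columns), red for above and blue for below the mean. In gmASTR replicate 5 *Mfap5* and *Efemp1* lie below and *Eln* and *Ltbp1* above their means, and wmASTR replicate 4 shows the same signs.

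Among 1027 other genes with a known name and a mean of at least 10 CPM, those whose deviations from the region means over the 12 libraries were most like those of each gene were picked by Pearson's r. For *Eln* they included *Ppp1r14a* (r = 0.93) and *Tinagl1* (0.91), and for *Ltbp1* they were *Tgfb2* (0.94), *Ggta1* (0.92) and *Grem1* (0.90). For *Mfap5* they were *Thbd* (0.97), *Rab34* (0.96) and *Ccdc8* (0.94), and for *Efemp1* they were *Foxd1* (0.92), *Twist1* (0.91) and *Tuft1* (0.90). *Fbln5* was most like *Vim* (0.87), *Itm2a* (0.83) and *Ap1s3* (0.76), and the genes most like *Fbln2* included *LOC100359951* (0.78) and *Itga11* (0.71), though *Fbln2* had 0 or 1 count in 3 gmASTR libraries. For *Ltbp1* and *Tgfb2*, the gene of a TGF-β ligand, r was 0.97 in gmASTRs and 0.89 in wmASTRs (n = 6 each). As *Tgfb2* was picked for its r over these same libraries, both values are high by that choice and are given as a description. *Ltbp1* had only 2 and 1 counts in gmASTR replicates 3 and 4. Names were known for 2095 of the 15478 genes tested, so a closer gene without a name would not be seen here.

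Of 40 other genes of elastic fibre assembly, latent TGF-β and elastin breakdown, 12 could be matched to an identifier and all 12 were tested. They had more transcript in wmASTRs in 6 cases, more in gmASTRs in 2 and did not pass the test in 4, with a median log2FC of -0.25. Of the 2095 tested genes with a known name 29.4% passed the test and 91.3% had a positive log2FC, so this count is not read against the 7.73% of all genes. *Lox*, whose lysyl oxidase crosslinks elastin, was at 999.1 ± 164 CPM (gmASTRs) against 2021 ± 185 CPM (wmASTRs) (log2FC -1.08, SE 0.12, edgeR FDR = 1.59e-06). *Fbn1*, the gene of the fibrillin on which microfibrils are built, was at 250.8 ± 98.2 and 521.9 ± 48.2 CPM (log2FC -1.11, SE 0.18, edgeR FDR = 0.000134). The main scaffold gene and *Lox* thus had more transcript in wmASTRs, as *Eln* had, while the microfibril protein gene *Mfap5* had less. *Lox* was the 1 of 5 crosslinking enzyme genes that could be matched, so the others are not covered.

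Genes around latent TGF-β were found on both sides. *Ltbp2*, a relative of *Ltbp1* whose protein binds microfibrils, was at 76.8 ± 33.7 CPM (gmASTRs) against 191.0 ± 25.1 CPM (wmASTRs) (log2FC -1.36, SE 0.21, edgeR FDR = 8.31e-05), and *Tgfb2* at 210.3 ± 78.1 and 512.2 ± 102 CPM (log2FC -1.34, SE 0.20, edgeR FDR = 5.72e-05). *Ltbp3*, which binds latent TGF-β, had more transcript in gmASTRs (55.1 ± 17.8 and 32.9 ± 5.39 CPM, log2FC 0.67, SE 0.19, edgeR FDR = 0.0252), a call that was lost with limma-voom (FDR = 0.0504) and when gmASTR replicate 2, 4 or 6 or wmASTR replicate 4, 5 or 6 was left out, with FDR of 0.0503 to 0.103. *Mfap2*, which encodes the microfibril protein MAGP-1, relative of the *Mfap5* product, was also higher in gmASTRs, at 20.6 ± 9.54 against 5.63 ± 4.42 CPM (log2FC 1.79, SE 0.44, edgeR FDR = 0.00985), with overlapping libraries. The elastase gene *Mmp12* was at 8.78 ± 8.29 CPM (gmASTRs) against 47.3 ± 25.8 CPM (wmASTRs) (log2FC -2.48, SE 0.53, edgeR FDR = 0.00288, and log2FC -3.37 with limma-voom, FDR = 0.0183). *Ctss*, the gene of the elastin-cleaving cathepsin S, was at 1.11 ± 1.06 and 8.63 ± 5.90 CPM (log2FC -3.04, SE 0.77, edgeR FDR = 0.0128, and 0.0612 without wmASTR replicate 4).

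**Figure D4:**
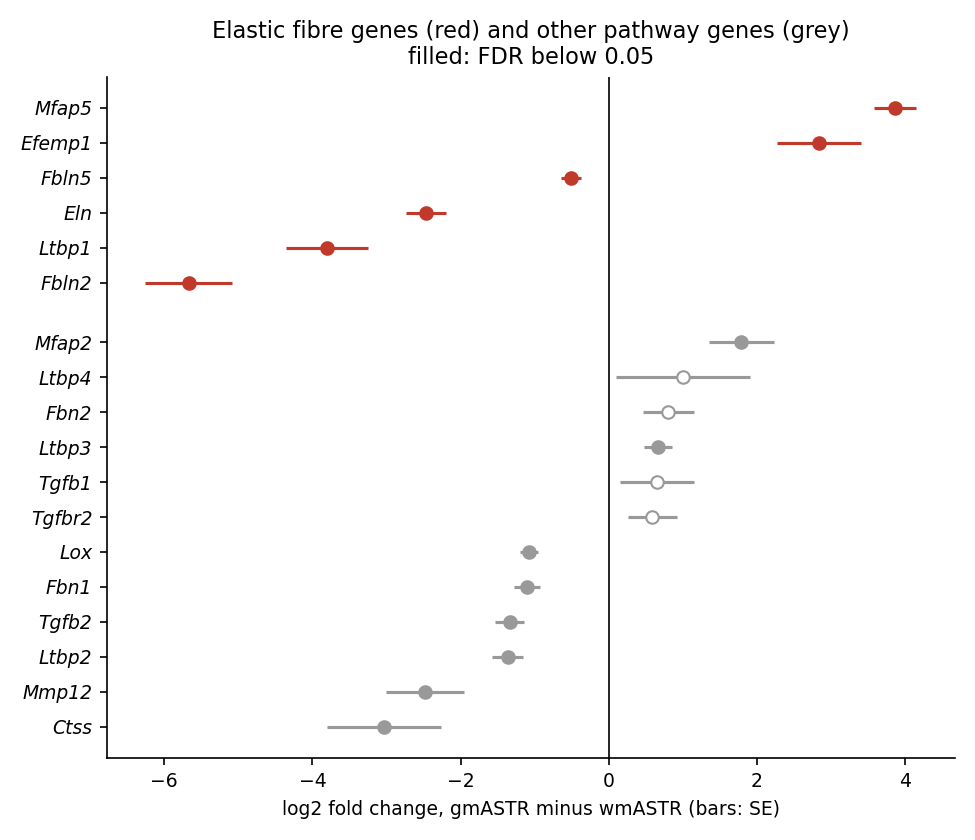
Log2 fold change between gmASTRs and wmASTRs with its SE from the edgeR fit, for the 6 elastic fibre genes (red) and 12 other pathway genes (grey), filled where the FDR was below 0.05. The red points span -5.67 (*Fbln2*) to 3.86 (*Mfap5*), and all 6 are filled, against 8 of the 12 grey points.

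Some transcripts that mark other cell types also differed between the regions, and others did not. In bulk RNA, fewer cells of a type and less RNA per cell cannot be told apart. Of 6 smooth muscle markers 2 were matched, *Myh11* and *Des*, with summed levels of 29.2 to 172 CPM (gmASTRs) against 376 to 943 CPM (wmASTRs). *Myh11* (96.0 ± 55.1 and 489.2 ± 127 CPM, log2FC -2.40, SE 0.29, edgeR FDR = 5.28e-06) was highest in wmASTR replicate 4 and lowest in gmASTR replicate 6, as *Eln* was, though among gmASTRs it was highest in replicate 1 and *Eln* in replicate 5. *Des* (2.38 ± 2.58 and 56.4 ± 79.6 CPM, log2FC -4.65, SE 0.76, edgeR FDR = 0.000169, with overlapping libraries) was also highest in wmASTR replicate 4, at 213.9 CPM, but among gmASTRs it was lowest in replicate 4, at 0 counts, and second highest in replicate 6. Its log2FC was -3.46 without wmASTR replicate 4, -5.33 without gmASTR replicate 1 and -3.80 with a replicate block, and its call was lost with limma-voom (FDR = 0.172). Of 13 leptomeningeal and fibroblast markers 8 were matched, with summed levels of 2840 to 7810 CPM (gmASTRs) against 1100 to 1960 CPM (wmASTRs). Of these 8, *Col3a1*, *Foxc1*, *Cldn11* and *Cdh1* were higher in gmASTRs, *Ptgds* was higher in wmASTRs (log2FC -3.22, SE 0.88, edgeR FDR = 0.0213), and *Pdgfra*, *Igf2* and *Aldh1a2* did not pass the test (edgeR FDR = 0.392, 0.0829 and 0.165). The count depends on single libraries and settings, as the *Ptgds* call was lost without wmASTR replicate 1 (FDR = 0.106) or 4 (0.0552) and with limma-voom (0.05003), and its log2FC was -4.33 without gmASTR replicate 2. *Igf2* passed, higher in gmASTRs, without gmASTR replicate 5 (edgeR FDR = 0.0253), without wmASTR replicate 3 (0.0239) and with a replicate block (0.00937), and *Aldh1a2* with the block (0.00553). Among them *Cldn11*, a tight junction gene, was at 1842 ± 1433 CPM (gmASTRs) against 27.5 ± 27.9 CPM (wmASTRs) and was lowest in gmASTR replicate 5 and highest in wmASTR replicate 3 (log2FC 5.97, and 6.64 without the latter), and *Cdh1*, the E-cadherin gene, was lowest and highest in the same libraries, at 87.35 CPM and 113.6 CPM (log2FC 5.00, and 6.56 without wmASTR replicate 3). *Foxc1* and *Igf2* were also lowest among gmASTRs in replicate 5 (274.9 and 48.7 CPM) and highest among wmASTRs in replicate 3 (338.7 and 88.0 CPM). The other 4 markers did not have both, and gmASTR replicate 5 had the highest *Aldh1a2* of the gmASTRs (47.2 CPM) and the next to highest *Col3a1* (2171 CPM). *Mfap5* and *Efemp1* were likewise lowest in gmASTR replicate 5 and highest in wmASTR replicate 3 of their regions. None of 6 pericyte markers could be matched, and 2 of 7 endothelial markers summed to 5.02 to 16.3 CPM (gmASTRs) against 7.15 to 22.0 CPM (wmASTRs). Neither endothelial marker passed the test (*Tek* edgeR FDR = 0.736, *Egfl7* edgeR FDR = 0.5945). The 3 matched of 6 microglia markers summed to 2.33 to 9.15 CPM (gmASTRs) against 9.98 to 47.7 CPM (wmASTRs). Among wmASTRs all 3, *Aif1*, *Ncf1* and *Irf8*, were highest in replicate 4, as *Mmp12* and *Ctss* were. Among gmASTRs *Mmp12*, *Aif1* and *Ncf1* were highest in replicate 1, but *Ctss* in replicate 4 and *Irf8* in replicate 2. *Ttr*, the 1 matched of 5 choroid plexus markers, was at 0 to 3.98 and 4.65 to 376 CPM. No marker list was at 0 throughout, and the part of these cells in the results for the elastic fibre genes, *Mmp12* and *Ctss* was not tested.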

How the data were processed

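RNA of 6 gmASTR and 6 wmASTR culture preparations was made into 3′ libraries. For alignment to the rat genome the authors used HISAT (0.1.5), for sorting SAMtools (1.2), and for read counts per Ensembl gene HTSeq (0.6.1p1) in union mode and without strand. The submitters' processing notes name a mouse build, whereas the identifiers are of rat genes. They deposited unnormalized read counts of 17941 genes and, separately, of 9394 genes kept by a filter on low counts, which were exactly those with at least 2 counts in at least 11 libraries. *Fbln2* is not in the latter, so all genes with at least 1 count (15478) were used. Use of molecular identifiers is not stated in the sources used here, so floors cover counting error only. Total counts did not differ beyond their spread (exact permutation test, two-sided, p = 0.216). Without strand, reads of overlapping genes cannot be told apart.

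CPM, each count scaled to the library total, were computed here from the deposited counts, as was everything that follows. Differences were tested with edgeR (4.0.16) in R (4.3.3), by the quasi-likelihood test after TMM normalization on region alone (prior count 0.125), and p-values were adjusted over 15478 genes by Benjamini-Hochberg. The SE is the log2FC divided by the root of the F statistic. The procedure was tested on simulated data. Alternatives were other scalings, filters on low counts, limma (3.58.1) with voom, DESeq2 (1.42.0), the replicate number as a block and each library left out in turn. Levels were summarised in Python (3.11.15) by means of pandas (2.3.3), scipy (1.17.1) and numpy (2.4.6), with plots by matplotlib (3.10.9).

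Names came from the study's own gene lists, with 2010 beside an identifier and 85, *Fbln5* among them, joined by their 12 CPM values within 0.5%. Genes named are the 6 elastic fibre genes, the pathway genes that passed the test (those that did not are also given), defining markers and the 3 most alike genes for each member, of which some are not reported here. Members and lists were chosen with earlier results of these data known. The authors' own fold changes and p-values, which compare the same groups, were not used.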

Additional observations from a re-analysis of the deposited data

Results flagged for a closer look

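In *Mfap5*, the gmASTR library of replicate 5, at 143.1 CPM, lay far below the other gmASTR libraries. Its gap to the next library was 0.628 of the range of the 6, just above the limit for 6 values in Dixon's test at the 95% level. It was the one such library among 12 groups tested (6 genes in 2 regions), and as chance gives such a library in about 1 in 20 groups, 1 among 12 is not far from what chance gives. The same library also had the lowest *Efemp1*, *Cldn11* and *Cdh1* of the gmASTRs and the highest *Eln* and *Fbln5*.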

How the results depend on the processing

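The 6 elastic fibre genes kept their direction and an FDR below 0.05 at all 113 values from 19 alternative fits, with 2 genes higher in gmASTRs throughout and 4 in wmASTRs, or 3 in the deposited filtered table, which lacks *Fbln2*. Leaving out each library gave log2FC from -2.64 to -2.26 for *Eln*, -6.60 to -5.30 for *Fbln2*, -0.59 to -0.46 for *Fbln5* (FDR 0.00311 to 0.0475, highest without wmASTR replicate 6), 2.58 to 3.33 for *Efemp1*, 3.74 to 4.07 for *Mfap5* and -4.37 to -3.43 for *Ltbp1*. With limma-voom the log2FC moved most, away from 0, for *Efemp1* (4.07), *Ltbp1* (-4.53) and *Fbln2* (-6.78). It was -2.58 for *Eln*, -0.52 for *Fbln5* and 3.68 for *Mfap5*, and the cause of these moves was not tested. Pathway genes higher in gmASTRs numbered 1 instead of 2 with limma-voom and 1 to 2 with a library left out, the gene lost being *Ltbp3*. Without gmASTR replicate 5 the gmASTR share of *Eln* was 6.09% instead of 9.72%, and without gmASTR replicate 1 the gmASTR mean of *Fbln2* was 0.915 instead of 1.74 CPM. Libraries with the same replicate number did not deviate together (correlations of -0.0236 to 0.00738), so the numbers do not show which libraries come from 1 animal, and no other pairing could be used. A fit with a replicate block gave log2FC of -2.54 for *Eln*, -5.90 for *Fbln2*, -0.52 for *Fbln5*, 3.29 for *Efemp1*, 3.75 for *Mfap5* and -3.94 for *Ltbp1*, and 1301 instead of 1197 genes passed. Over all genes the number that passed was 1552 with DESeq2, 1282 without TMM scaling and 1158 of 9394 in the filtered table. Without TMM scaling 688 of these were towards gmASTRs and 594 towards wmASTRs, against 535 and 662 with it. Depth limits *Fbln2* and *Ltbp1* in gmASTRs and *Efemp1* in wmASTRs, where some libraries were under 3 counts.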

Other observations

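The pathway genes that did not pass the test had low levels, but so did *Ctss* and *Mfap2*, which passed. *Fbn2*, the gene of the second fibrillin, was at 14.5 ± 6.21 CPM (gmASTRs) against 7.87 ± 2.19 CPM (wmASTRs) (log2FC 0.80, SE 0.34, edgeR FDR = 0.158). *Ltbp4* was at 3.90 ± 3.33 and 1.83 ± 1.60 CPM (edgeR FDR = 0.530), *Tgfb1* at 10.1 ± 2.68 and 6.12 ± 4.62 CPM (edgeR FDR = 0.477), and *Tgfbr2*, a TGF-β receptor gene, at 16.2 ± 7.14 and 10.3 ± 3.75 CPM (edgeR FDR = 0.281). *Tgfb2* was thus the TGF-β gene with more transcript of the 2 measured, at 210.3 CPM (gmASTRs) against 512.2 CPM (wmASTRs).

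The ratio of *Ltbp1* to *Efemp1* counts was 0.00171 to 0.305 in gmASTRs and 1.01 to 169 in the 5 wmASTR libraries in which *Efemp1* was detected. The ratio of *Fbln2* to *Fbln5* was 0 to 0.0895 in gmASTRs and 0.272 to 1.51 in wmASTRs, and that of *Eln* to *Fbln5* was 0.409 to 1.41 and 2.51 to 5.45.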
